A study of Mus musculus with 12 samples.

Results

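The comparison of thymopentin with normal saline in colitis raised by trinitrobenzene sulfonic acid (TNBS) covers 6 of the 12 mouse colon libraries, 3 in each group. Its genes are those with a mean of at least 1 FPKM over these 6 libraries, 13647 of the 55335 in the deposited table. FPKM is the number of fragments scaled to transcript length and library size. All mice are labelled wild type, and every group, the saline controls included, has colitis. The groups used are TNBS with saline, TNBS with thymopentin, and, as the other model, colitis from dextran sulfate sodium (DSS) with saline or with thymopentin. Strain, sex, age, dose, route and time are not stated in the sources used here, nor is it said whether a library is 1 mouse, so p-values measure the spread between libraries only.

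The epithelial colon markers were abundant in all 6 libraries: Muc2, the goblet cell mucin, ran from 599.6 to 1779 FPKM, Car1, a carbonic anhydrase of colonocytes, from 375 to 2026, and Cdx2, the intestinal homeobox factor, from 33.3 to 92.0. Summed FPKM lay between 384431 and 417581 per library. TNBS saline 3 stood apart: Hoxb13, which marks the distal end of the colon, stood at 0.722 FPKM there, against 49.4 to 89.8 in the other 5 libraries. This library held the most FPKM of adipocyte markers (95.8, against 3.70 to 16.2) and small intestine genes (526, against 105 to 342). Correlations across genes ran from 0.93 to 0.977 between libraries of a group and from 0.933 to 0.967 between groups. The sources used here give no read totals. Reads recovered for the genes the authors selected, given below for some genes, put the relative size factors of the 6 libraries between 1.0 and 1.12.

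Thymopentin is a synthetic pentapeptide taken from the thymic hormone thymopoietin. TNBS is a hapten that couples to colon proteins and provokes a T cell response, with interferon gamma as a leading cytokine. Type I interferons act through the interferon-stimulated response element, or ISRE, in promoters of antiviral genes. Interferon gamma acts through the gamma-activated site, or GAS, and induces immunity-related GTPases, guanylate-binding proteins and the machinery that presents peptides on MHC class I. In bulk tissue, fewer cells of a type and less RNA per cell cannot be told apart.

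The letters of the ISRE stood in many promoters of the genes that were lower with thymopentin. RefSeq promoters (GRCm38.p6, 250 bases before to 50 after the start) were at hand for 38 of the 52 genes called lower and 25 of the 39 called higher; both calls are described below. The pattern GAAANNGAAA on either strand stood in 19 of the 38 lower genes (50%), in 0 of the 25 higher genes, and in 3.81% of the 9164 promoters of tested genes. The pattern TTCNNNGAA, the letters of the GAS, stood in 9 of the 38 (23.7%) and 2 of the 25 (8.0%), against 8.16% of the tested promoters. The 2 patterns were chosen after the calls had been seen, were searched without regard to overlap between them, and a match says only that the letters are present. The pattern stood in 14 of 24 promoters of the type I interferon list, 8 of 9 of the GTPases and 5 of 20 of MHC class I. Psmb9, Irf7 and Cxcl9, also called lower, held no match. The 5 promoters below all hold a match and were taken from antiviral effectors, GTPases and MHC class I genes that fell. They do not show how common the pattern is in each group. Capitals mark the ISRE letters, TTTCNNTTTC being the same pattern on the other strand. They lie on GRCm38.p6 at chr4:156200769-156201068 (minus strand) for Isg15, chr19:34640639-34640938 (plus) for Ifit1, chr5:120777610-120777909 (minus) for Oas3, chr11:58199306-58199605 (plus) for Igtp and chr2:122147437-122147736 (plus) for B2m, each printed 5′ to 3′ along the gene.
Isg15: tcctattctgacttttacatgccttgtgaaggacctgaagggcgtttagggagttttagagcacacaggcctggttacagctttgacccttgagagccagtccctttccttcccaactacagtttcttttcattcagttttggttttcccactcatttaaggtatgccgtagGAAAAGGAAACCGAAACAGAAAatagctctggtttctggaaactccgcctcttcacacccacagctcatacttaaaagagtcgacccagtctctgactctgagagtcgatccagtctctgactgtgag
Ifit1: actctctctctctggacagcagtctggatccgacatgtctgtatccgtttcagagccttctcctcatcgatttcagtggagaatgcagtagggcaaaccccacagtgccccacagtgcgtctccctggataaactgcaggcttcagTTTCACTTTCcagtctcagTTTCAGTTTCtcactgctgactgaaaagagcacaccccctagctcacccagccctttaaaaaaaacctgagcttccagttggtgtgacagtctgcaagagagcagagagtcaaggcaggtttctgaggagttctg
Oas3: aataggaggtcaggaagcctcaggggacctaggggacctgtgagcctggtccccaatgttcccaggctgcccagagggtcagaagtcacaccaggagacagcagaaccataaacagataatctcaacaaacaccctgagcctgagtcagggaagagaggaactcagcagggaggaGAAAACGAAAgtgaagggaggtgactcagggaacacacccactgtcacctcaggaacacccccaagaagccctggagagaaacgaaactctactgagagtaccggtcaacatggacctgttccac
Igtp: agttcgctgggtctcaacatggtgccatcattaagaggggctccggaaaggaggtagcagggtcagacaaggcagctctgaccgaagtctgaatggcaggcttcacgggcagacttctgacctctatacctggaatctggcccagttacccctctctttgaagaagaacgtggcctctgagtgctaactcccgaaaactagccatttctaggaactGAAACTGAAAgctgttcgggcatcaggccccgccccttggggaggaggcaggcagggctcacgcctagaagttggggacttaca
B2m: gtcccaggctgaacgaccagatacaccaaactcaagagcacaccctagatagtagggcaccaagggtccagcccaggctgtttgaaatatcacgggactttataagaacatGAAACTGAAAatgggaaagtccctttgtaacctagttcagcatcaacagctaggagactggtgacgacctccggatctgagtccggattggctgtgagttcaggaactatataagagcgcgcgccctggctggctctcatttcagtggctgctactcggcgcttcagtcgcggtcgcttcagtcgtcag
The first Isg15 match started 78 bases before the start of transcription, and its 3 matches overlap in 1 run. The Ifit1 matches started 104 and 85 bases before it, that of Oas3 75, that of Igtp 34 and that of B2m 139.

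Thymopentin was followed by lower interferon-inducible genes and higher matrix genes. In limma's test, fitted over all 12 libraries on log2(FPKM + 1), 91 genes, 0.667% of those tested, passed at an adjusted p under 0.05. Of these, 39 (0.286%) were higher and 52 (0.381%) lower, and 44 changed by at least 2-fold on that scale. Under median-ratio rescaling 31 were higher and 66 lower, and under quantile normalization 44 and 73. Of the 52 lower genes, 21 belonged to 4 lists of interferon and MHC class I genes, and of the 39 higher genes, 9 to the matrix and fibroblast lists. The 4 lists held 34, 14, 13 and 24 tested genes, and the matrix and fibroblast lists 30 and 15. All were chosen with earlier results of these data known. The calls rest on few libraries and on a spread estimated with the help of the DSS libraries. A fit on the 6 TNBS libraries alone called 7 genes (Mmp7, Kpna1, Igfbp6, Oasl2, Oas3, Isg15 and 1 unnamed model), 6 of them among the 91. Without 1 library the count ran from 35 (TNBS thymopentin 1) to 134 (TNBS saline 2). It was 52 without TNBS saline 1, 42 without TNBS thymopentin 3, 56 without DSS saline 3 and 60 without DSS thymopentin 3. Without TNBS saline 3, the library set apart by its Hoxb13 level, it was 68, of which 43 were among the 91. In all, 22 genes passed without each of the 12 libraries in turn, 7 higher and 15 lower. In the 91 genes the 3 thymopentin values lay all above or all below the 3 saline values, as they did in 18.5% of all genes tested.

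**Figure D1:**
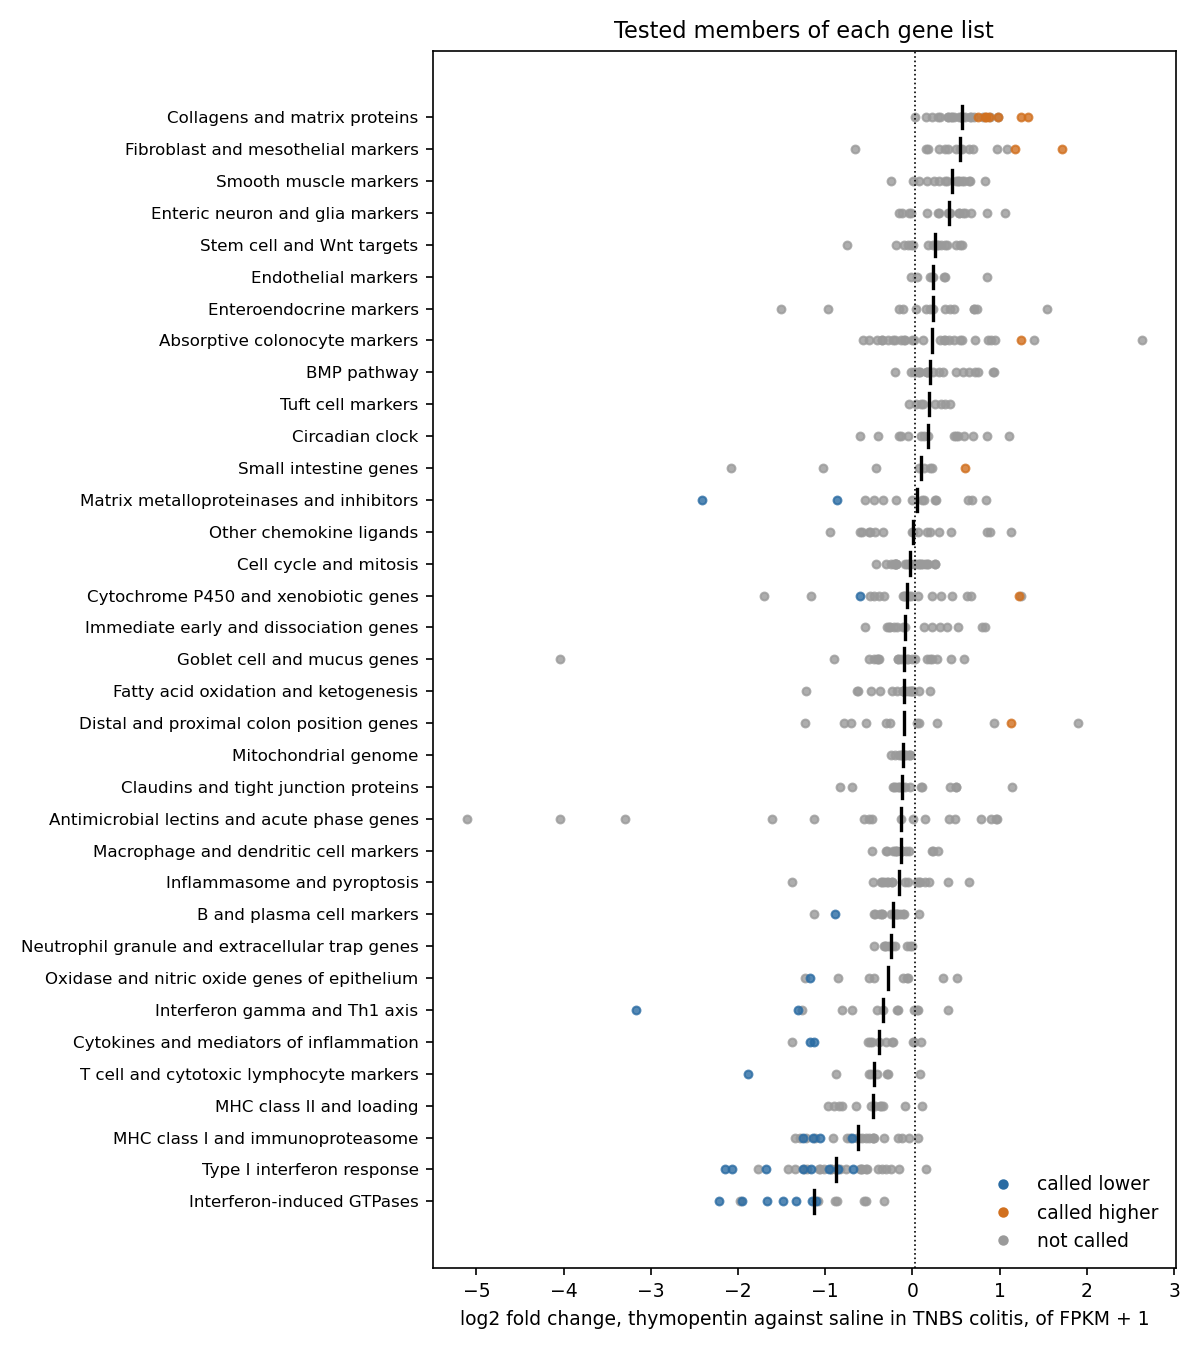
Log2 fold changes (thymopentin against saline in TNBS colitis, of FPKM + 1) of the tested members of each gene list with at least 8 of them, 1 point per gene, the bar at the median of the list and the dotted line at the median of all genes tested (0.03). The 4 lowest medians are those of the interferon-induced GTPases (-1.13), the type I interferon response (-0.88), MHC class I (-0.62) and MHC class II (-0.45), and the highest is that of the collagens and matrix proteins (0.57).

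Antiviral genes of the type I interferon response were called lower with thymopentin. Isg15, a ubiquitin-like protein joined to viral and host proteins, measured 28.4, 42.0 and 32.5 FPKM in TNBS saline 1 to 3 and 6.11, 9.08 and 6.93 in TNBS thymopentin 1 to 3. Every thymopentin library lay below every saline library. The log2 fold change was -2.07 ± 0.29 (SE, limma adjusted p = 0.0118), on 858 to 1093 reads per saline and 179 to 250 per thymopentin library. Ifit1, which binds viral RNA, measured 15.7, 20.6 and 28.2 FPKM with saline and 4.03, 4.24 and 3.56 with thymopentin (log2 fold change -2.15 ± 0.28, limma adjusted p = 0.00915). Its saline libraries spread more than its thymopentin libraries, which lay close together. Oas3, which makes the signal that activates RNase L, measured 4.68, 5.74 and 6.56 FPKM against 1.04, 1.07 and 1.07 (-1.68 ± 0.20, limma adjusted p = 0.00687). Usp18, the protease that removes Isg15 and damps the interferon receptor, measured 2.79, 4.63 and 4.56 FPKM against 0.895, 1.24 and 1.05 (-1.26 ± 0.19, limma adjusted p = 0.0196). Isg15 lost its call without TNBS thymopentin 1 (adjusted p = 0.058), and Usp18 without TNBS saline 3, TNBS thymopentin 1 or TNBS thymopentin 3 (up to 0.0825).

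Of the 34 tested members of this list, 8 were called lower, against 0.381% of all genes, and 26 did not pass. The other 4 lower genes, named after their values had been seen, were Irf7, the factor that amplifies interferon production, Bst2, which tethers budding virus, Parp14, a mono-ADP-ribosyltransferase, and Oas1a. Their log2 fold changes were -1.16, -0.96, -0.85 and -0.68. Irf7 lost its call when library 1 or 3 of TNBS saline, or 1 or 2 of TNBS thymopentin, was left out (adjusted p up to 0.083). Parp14 kept its call without TNBS saline 1, TNBS thymopentin 2, DSS saline 1 or 2 or DSS thymopentin 1 and lost it without each other library (up to 0.106). Bst2 kept it only without TNBS thymopentin 2 or DSS saline 1 or 2, and Oas1a only without DSS saline 1 or 2 (up to 0.164 and 0.152). With the replicate block, which compares libraries of the same number, Bst2, Parp14 and Oas1a missed the threshold (0.0927, 0.0637 and 0.0937). The list median was -0.88, against 0.03 over all genes, 33 of the 34 values were below 0, and in 28 (82.4%, against 6.62% of all genes) every thymopentin library lay below every saline library. Its summed FPKM was 361, 444 and 413 in TNBS saline 1 to 3 and 205, 224 and 188 in TNBS thymopentin 1 to 3. The number of members called lower was 2 without TNBS thymopentin 1, 3 without TNBS saline 3, 4 without TNBS thymopentin 3, and 5 without TNBS saline 1, DSS saline 3 or DSS thymopentin 2. It was 12 without DSS saline 2, 17 without DSS saline 1 and 3 in the fit on the TNBS libraries alone. Leaving out members named in an earlier description of these data, 5 of 31 were called lower. Oasl2 shows how the DSS libraries enter: it measured 18, 24.4 and 22.7 FPKM against 5.11, 6.02 and 5.65, with an adjusted p of 0.110 in the limma fit on all libraries and 0.0320 in that on the TNBS libraries alone.

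**Figure D2:**
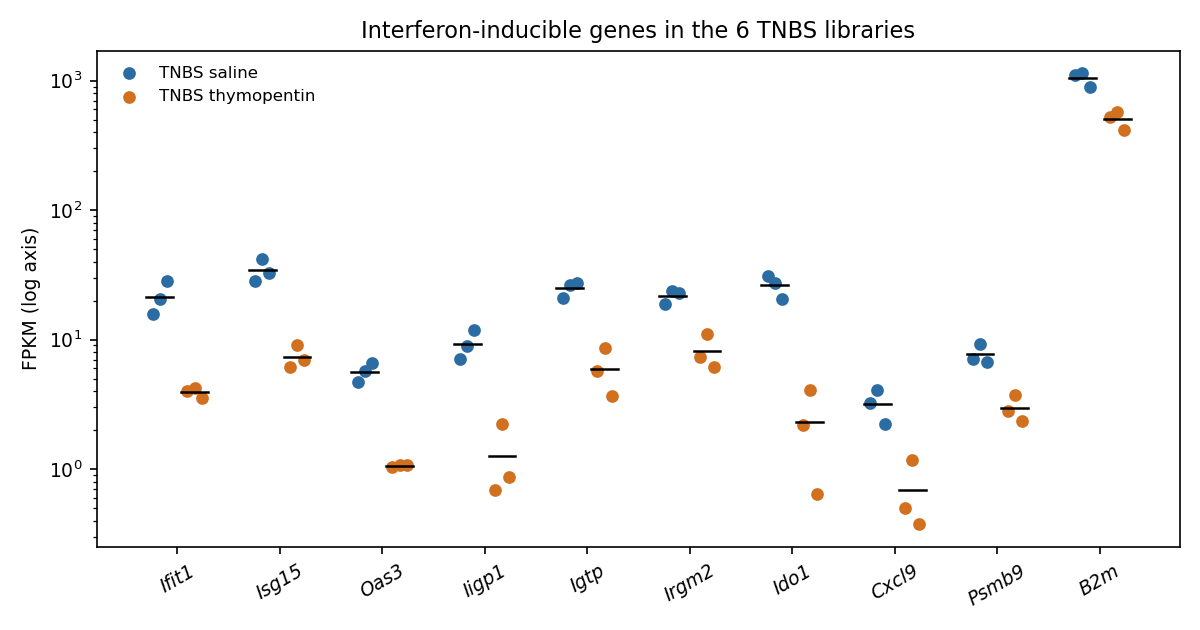
FPKM (log axis) of 10 interferon-inducible genes in the 3 TNBS saline and 3 TNBS thymopentin libraries, 1 point per library, with the bar at the group mean. In each gene every thymopentin library lies below every saline library, for B2m at 415 to 576 FPKM against 891 to 1138 and for Iigp1 at 0.688 to 2.22 against 7.05 to 11.9.

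The interferon-induced GTPases, which assemble on vacuoles that hold intracellular pathogens, were the list with the lowest median of those with at least 8 tested members. Iigp1 measured 7.05, 8.94 and 11.9 FPKM with saline and 0.688, 2.22 and 0.866 with thymopentin (log2 fold change -2.22 ± 0.25, limma adjusted p = 0.00609). Igtp measured 20.8, 26.5 and 27.5 FPKM against 5.70, 8.53 and 3.65 (-1.95 ± 0.23, limma adjusted p = 0.00663). Irgm2 measured 18.8, 23.8 and 22.7 FPKM against 7.33, 11.04 and 6.16 (-1.34 ± 0.18, limma adjusted p = 0.0102). In Igtp, Irgm2 and Iigp1, TNBS thymopentin 2 was the highest thymopentin library and still below every saline library. Tgtp1 had a log2 fold change of -1.67 (adjusted p = 0.0163), and its value is uncertain because it shares reads with the near-identical Tgtp2, itself called lower (-1.49). Both Irgm2 and Tgtp1 lost their call without TNBS thymopentin 1 (adjusted p = 0.0504 and 0.0693).

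Of the 14 tested GTPases, 7 were called lower, against 0.381% of all genes, and 7 missed the threshold. The median was -1.13. In 12 of the 14 (85.7%, against 6.62% of all genes) the groups did not overlap and thymopentin was lower. The called members besides Iigp1, Igtp, Irgm2 and Tgtp1 were Tgtp2, Irgm1 and Gbp2, named after their values had been seen. Irgm1, which acts in autophagy of bacteria, measured 13.1, 17.03 and 17.7 FPKM against 6.19, 8.80 and 5.16 (limma adjusted p = 0.0196; up to 0.0825 without TNBS saline 3 or TNBS thymopentin 1 or 3). Tgtp2 lost its call when library 2 or 3 of TNBS saline, or 1 or 3 of TNBS thymopentin, was left out (up to 0.0856) and with the replicate block (0.0732). Gbp2, a guanylate-binding protein, had a log2 fold change of -1.11 (adjusted p = 0.0446) and lost its call when any 1 library other than TNBS thymopentin 2 was left out (up to 0.101). The number of GTPases called lower was 2 without TNBS thymopentin 1 and 4 without TNBS thymopentin 3. It was 0 in the fit on the TNBS libraries alone, where Iigp1, Igtp and Irgm2 missed the threshold. Of the 10 GTPases not named in the earlier description, 3 were called lower.

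Genes of antigen presentation by MHC class I were called lower as well. B2m, the light chain of every class I molecule, measured 1112, 1138 and 891 FPKM with saline and 524, 576 and 415 with thymopentin (log2 fold change -1.06 ± 0.14, limma adjusted p = 0.01), on 34199 to 40986 reads per saline and 14229 to 19278 per thymopentin library. Psmb9, a catalytic subunit of the immunoproteasome, measured 7.06, 9.28 and 6.75 FPKM against 2.79, 3.70 and 2.35 (-1.14 ± 0.15, limma adjusted p = 0.00915). Nlrc5, the transactivator of class I genes, measured 3.07, 4.28 and 2.91 FPKM against 0.885, 1.33 and 0.395 (-1.26 ± 0.21, limma adjusted p = 0.0279). In B2m and Psmb9 the groups did not overlap, and both kept their call without each of the 12 libraries in turn. Nlrc5 missed the threshold when DSS thymopentin 3, TNBS thymopentin 1 or 3, or TNBS saline 1 or 2 was left out (adjusted p up to 0.0896). H2-T23, the nonclassical Qa-1, measured 68.2, 74.0 and 57.8 FPKM against 44.9, 40.0 and 37.0 (-0.70 ± 0.10, limma adjusted p = 0.0181). It lost its call without TNBS saline 1 or TNBS thymopentin 3 (up to 0.0749), and class I genes can share reads with one another.

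Among 24 tested members of the class I and immunoproteasome list, 4 were lower by the test (0.381% of all genes were) and the other 20 did not pass. The median was -0.62, 23 values were below 0, and in 14 (58.3%, against 6.62% of all genes) every thymopentin library lay below every saline library. With the replicate block or median-ratio rescaling 8 were called lower, and with quantile normalization 7. The count was 2 without TNBS saline 1 or TNBS thymopentin 3, 9 without TNBS thymopentin 2, and 0 in the fit on the TNBS libraries alone. Of 12 MHC class II genes 0 were called, and 2 had an unadjusted p under 0.05 in limma, against 12.5% of all genes. The class II median was -0.45, and it was -0.03 without TNBS saline 2, -0.02 without TNBS thymopentin 3 and -1.16 without TNBS saline 3. H2-DMb1, a class II loading factor, measured 11.7, 15.1 and 5.40 FPKM against 5.61, 8.23 and 1.83, so the groups overlapped (adjusted p = 0.383). With the replicate block its adjusted p was 0.0261. H2-DMa, its partner, measured 4.92, 6.40 and 2.81 FPKM against 2.26, 3.62 and 1.05 (adjusted p = 0.339, and 0.126 with the replicate block).

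In the interferon gamma and Th1 list, 2 of 13 tested members were called lower, against 0.381% of all genes, and 11 did not pass. Ido1, which degrades tryptophan, measured 30.7, 27.6 and 20.4 FPKM with saline and 2.204, 4.04 and 0.645 with thymopentin, a ratio of the means of 11.4. Its log2 fold change of -3.17 ± 0.34 (limma adjusted p = 0.00609) was the lowest of all called named genes. Cxcl9, a chemokine for activated T cells, measured 3.23, 4.07 and 2.22 FPKM against 0.496, 1.18 and 0.375 (-1.32 ± 0.21, limma adjusted p = 0.0215). Cxcl9 lost its call without TNBS saline 1, TNBS thymopentin 1 or TNBS thymopentin 3 (up to 0.0893). These signalling genes of the pathway did not pass: Ifngr1, a receptor chain, measured 41.0 to 56.3 FPKM with saline and 42.2 to 62.3 with thymopentin, and Jak1, its kinase, 17.6 to 20.9 and 17.5 to 22.2. Ifng itself was below the filter, at 0.103 to 0.279 FPKM in the saline libraries and listed at 0 in the 3 thymopentin libraries. Ifng, Ifngr1 and Jak1 were chosen for their place in the pathway after their values had been seen.

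Markers of T cells and cytotoxic lymphocytes varied within both groups. Of 25 listed, 8 were tested and 1 was called lower, against 0.381% of all genes. This was Gzma, a granule protease of killer cells, which measured 5.53, 5.01 and 2.19 FPKM with saline and 0.361, 0.590 and 0.133 with thymopentin (log2 fold change -1.89 ± 0.34, limma adjusted p = 0.0388). Gzma rested on 6 to 24 reads in the thymopentin libraries. It missed the threshold when TNBS saline 1 or 2, any of the 3 TNBS thymopentin libraries, DSS saline 3 or DSS thymopentin 3 was left out (up to 0.15). The summed FPKM of the 25 markers was 31.7, 41.5 and 16.1 in TNBS saline 1 to 3 and 16.8, 22.1 and 7.30 in TNBS thymopentin 1 to 3. None of the 25 was at 0 in all 6 libraries, and Cd3e, a T cell receptor subunit, ran from 0.329 to 0.805 FPKM with saline and from 0.0801 to 0.442 with thymopentin. TNBS saline 3, the library set apart by its Hoxb13 level, held fewer T cell marker FPKM than TNBS thymopentin 1 and 2. Its type I interferon sum was 413 FPKM, between those of TNBS saline 1 and 2. These are values of 1 library. Macrophage and dendritic cell markers gave 0 calls of 15 tested, and 2 had an unadjusted p under 0.05 in limma (12.5% of all genes). Their summed FPKM was 102 to 256 with saline and 102 to 196 with thymopentin. Of the 16 tested B and plasma cell markers, Prdm1 alone was called lower, against 0.381% of all genes. The summed FPKM of this list was 127 to 389 with saline and 156 to 232 with thymopentin. The part of these cell types in the interferon result was not tested beyond these values.

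**Figure D3:**
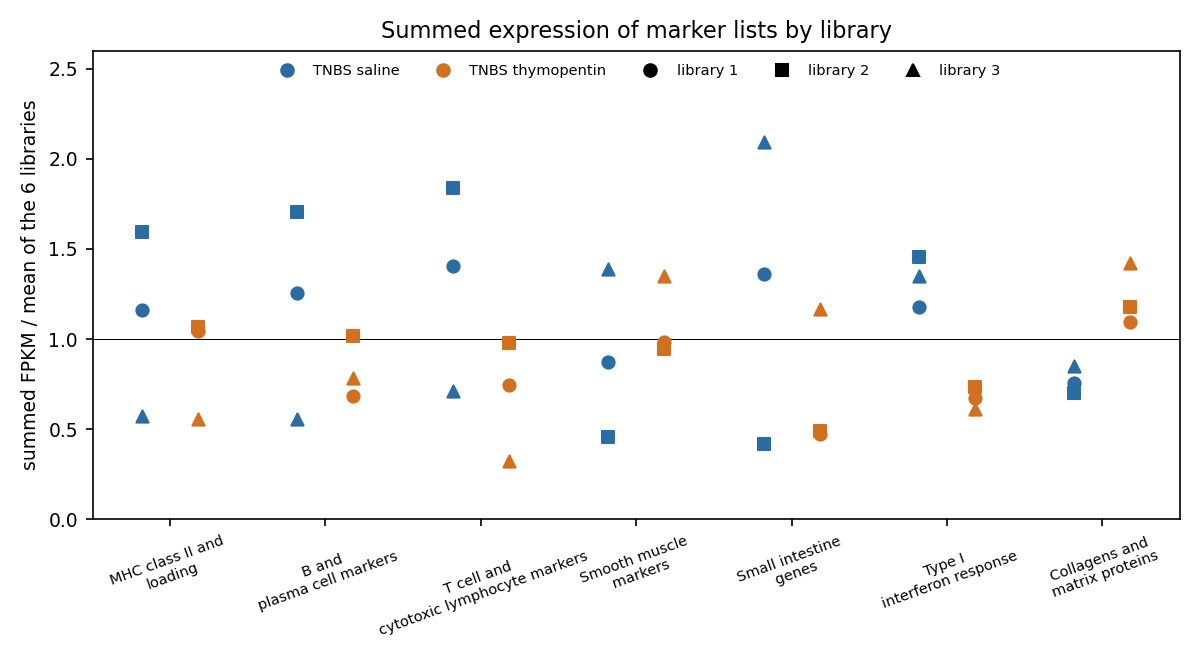
Summed FPKM of 7 gene lists in each TNBS library, divided by the mean of the 6 libraries, with 1 symbol per library number. The type I interferon and matrix sums part the groups. TNBS saline 3 lies among or below the thymopentin libraries in the MHC class II, B cell and T cell sums. It lies above them in the smooth muscle and small intestine sums.

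Mediators of inflammation gave 2 lower genes among 13 tested, against 0.381% of all genes, and 11 that did not pass. Their median was -0.39. Nos2, the inducible nitric oxide synthase, measured 13.1, 16.9 and 14.1 FPKM with saline and 5.39, 8.70 and 4.29 with thymopentin (log2 fold change -1.18 ± 0.19, limma adjusted p = 0.0215). The cytokine Tnf, which drives colitis, measured 5.71, 5.05 and 7.17 FPKM against 1.87, 2.62 and 2.05 (-1.13 ± 0.21, limma adjusted p = 0.0463). In both genes every thymopentin library lay below every saline library. Nos2 lost its call without TNBS saline 3, TNBS thymopentin 1 or TNBS thymopentin 3 (adjusted p up to 0.0893). Tnf lost it without 9 of the 12 libraries, all except TNBS saline 2, DSS thymopentin 1 and DSS thymopentin 2 (up to 0.152), and with the replicate block (0.0924). Il1b, picked after its values had been seen, measured 5.85, 8.04 and 1.58 FPKM against 0.851, 1.06 and 1.39 and did not pass (adjusted p = 0.167). Saa3, an acute phase protein, measured 2.65, 6.55 and 3.12 FPKM against 0.963, 0.635 and 0.227 (adjusted p = 0.052). Retnlb, the goblet cell resistin-like protein beta, spread most: 346, 58.4 and 649 FPKM with saline and 4.01, 6.43 and 78.8 with thymopentin. Its groups overlapped, and its adjusted p was 0.119, or 0.0491 with the replicate block.

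A mast cell chymase, a cytokine receptor and 2 matrix metalloproteinases were called lower. Mmp7, matrilysin, an epithelial protease that processes defensins, measured 6.56, 4.56 and 4.23 FPKM with saline and 0.0982, 0.209 and 0.102 with thymopentin, a ratio of the means of 37.5. It rested on 180 to 300 reads per saline library and 5 to 9 per thymopentin library. Its log2 fold change on the scale of FPKM + 1 was -2.41 ± 0.15, and its adjusted p of 0.000118 was the smallest of the comparison by limma, with at most 0.00184 when 1 library was left out. Mmp10, stromelysin 2, measured 2.04, 1.65 and 1.12 FPKM against 0.554, 0.264 and 0.441 (-0.86 ± 0.15, limma adjusted p = 0.0313). Mcpt1, a chymase of mucosal mast cells, measured 6.88, 5.98 and 6.67 FPKM against 1.51, 2.34 and 0.738 (-1.62 ± 0.28, limma adjusted p = 0.0344). Il4ra, the receptor of interleukins 4 and 13, measured 11.2, 11.4 and 10.2 FPKM against 5.81, 7.62 and 5.12 (-0.75 ± 0.13, limma adjusted p = 0.0313). In all 4 genes the groups did not overlap. Mmp10, Il4ra and Mcpt1 each lost the call without DSS thymopentin 3, TNBS thymopentin 1 or 3, or TNBS saline 1 or 2 (up to 0.117, 0.119 and 0.125). Further, Mmp10 lost it without TNBS thymopentin 2 or DSS saline 3, Il4ra without TNBS saline 3 or DSS saline 3, and Mcpt1 without TNBS saline 3 or DSS thymopentin 1 or 2. Mmp10 and Mcpt1 also lost it with the replicate block (0.0637 and 0.0829). Besides Mmp7 and Mmp10, 12 matrix metalloproteinases and inhibitors did not pass, and besides Il4ra 5 type 2 immunity genes. Over all genes tested, 0.381% were called lower. Of 17 mast cell and eosinophil markers 3 were tested, and Tpsab1 and Ccr3 were listed at 0 in all 6 libraries. Mcpt2, the neighbour of Mcpt1 in sequence, measured 3.99, 2.74 and 2.71 FPKM against 0.638, 1.03 and 0.782 (adjusted p = 0.125), and reads shared between the pair make both values uncertain.

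The series title names neutrophil extracellular traps, webs of DNA and granule proteins shed by neutrophils. Padi4, which citrullinates histones in traps, was listed at 0, 0.0243 and 0.0098 FPKM with saline and 0.0643, 0 and 0 with thymopentin. Mpo, myeloperoxidase, was above 0 in TNBS saline 3 alone (0.0132 FPKM), and Elane, neutrophil elastase, in TNBS thymopentin 2 alone (0.0296 FPKM). None of these 3 reached the filter. S100a8, a calprotectin subunit, measured 2.32, 3.42 and 0.984 FPKM with saline and 0, 0.148 and 0.236 with thymopentin, on 31 to 88 against 0 to 7 reads. S100a9, its partner, measured 3.49, 3.84 and 0.631 FPKM against 0.737, 0.204 and 0. The groups parted for S100a8 and overlapped for S100a9, and neither passed with all libraries (limma adjusted p = 0.0679 and 0.144). The FDR given for S100a8 by the authors' deposited table was 2.8e-05 (log2 fold change -3.98), and that for S100a9 0.0544 (-3.26). Of 21 neutrophil markers 4 were tested and 0 passed (2 at an unadjusted p under 0.05 in limma, against 12.5% of all genes). When TNBS saline 3 was left out 2 of the 4 were called lower, S100a8 (limma adjusted p = 0.0284) and S100a9 (0.0125). The summed FPKM of the 21 markers was 164, 218 and 109 in TNBS saline 1 to 3 and 167, 213 and 95.5 in TNBS thymopentin 1 to 3. Nearly all of it came from Ly6g and Cd177, neutrophil surface proteins named after their values had been seen. Ly6g measured 49.6, 76.7 and 3.93 FPKM against 110.4, 75.7 and 22.4, and Cd177 104, 126 and 101 against 53.2, 136 and 72.1. The groups overlapped in both. TNBS thymopentin 1 held the highest Ly6g, and S100a8, Mpo and Elane were listed at 0 there. Whether the sum follows the number of neutrophils was not tested. Of 20 granule and trap genes 10 were tested and 0 passed (0 unadjusted). The 2 smallest p-values of the latter list were those of Cyba, an oxidase subunit (48.6, 58.3 and 33.5 FPKM against 37.1, 42.3 and 23.7), and Selplg, the selectin ligand (1.24, 2.12 and 0.644 against 1.05, 1.10 and 0.423). The groups overlapped in both. Cxcl2, a chemokine that draws neutrophils, measured 2.56, 1.82 and 0.943 FPKM against 0.846, 1.06 and 0.0528 and did not pass (adjusted p = 0.28).

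Several genes outside these pathways had large falls that stood without each library in turn. Myl7, the atrial myosin light chain, measured 18.3, 15.0 and 12.4 FPKM with saline and 2.10, 2.19 and 0.129 with thymopentin (log2 fold change -2.84 ± 0.34, limma adjusted p = 0.00687). Other heart muscle genes did not share this level: Myh6 reached 0.0182, Myl4 0.634 and Tnnt2 1.04 FPKM in any of the 6 libraries. Slc17a4, an organic anion transporter of the intestine, measured 14.4, 13.8 and 15.4 FPKM against 5.12, 3.49 and 5.78 (-1.44 ± 0.16, limma adjusted p = 0.00609). Kpna1, an importin of the nuclear import machinery, measured 6.08, 5.80 and 6.78 FPKM against 1.73, 1.69 and 2.15 (-1.34 ± 0.12, limma adjusted p = 0.00172). Prdm1, the transcription factor Blimp-1, measured 2.99, 2.48 and 2.76 FPKM against 0.826, 1.39 and 0.890 (-0.89 ± 0.12, limma adjusted p = 0.0102, and 0.0516 with the replicate block). The groups did not overlap in any of these 4 genes, and in Kpna1 and Slc17a4 the libraries of each group lay close together.

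Genes of the extracellular matrix were called higher with thymopentin, 7 of the 30 tested, against 0.286% of all genes. Clec3b, tetranectin, a plasminogen-binding protein of connective tissue, measured 2.15, 1.80 and 3.11 FPKM with saline and 7.62, 6.23 and 8.04 with thymopentin (log2 fold change 1.32 ± 0.17, limma adjusted p = 0.00766). Dcn, decorin, a proteoglycan that binds collagen fibrils and TGF-beta, measured 10.3, 11.02 and 8.84 FPKM against 18.8, 17.4 and 19.6 (0.83 ± 0.10, limma adjusted p = 0.00713). Both genes passed without each of the 12 libraries in turn, though Dcn missed the threshold with the replicate block (adjusted p = 0.0558). Abi3bp, a matrix protein that binds collagen, measured 1.08, 1.10 and 0.719 FPKM against 3.75, 2.93 and 4.32 (1.24 ± 0.17, limma adjusted p = 0.0102). Mfap4, a microfibril protein of elastic fibres, measured 1.84, 3.24 and 2.65 FPKM against 6.65, 6.22 and 5.16 (0.98 ± 0.15, limma adjusted p = 0.0187). In each of the 4 genes the lowest thymopentin library was above the highest saline library. Without TNBS thymopentin 1, Abi3bp and Mfap4 lost their calls (0.0503 and 0.0825), and Mfap4 also with the replicate block (0.0637).

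The other 23 collagens and matrix proteins of the list did not pass. The fold changes ran from 0.03 to 1.32 on the log2 scale, with a median of 0.57, and in 23 (76.7%, against 11.9% of all genes) every thymopentin library lay above every saline library. The other 3 called members, picked after their values had been seen, were Lum, lumican (7.72, 7.69 and 6.88 FPKM against 11.96, 14.4 and 13.5, adjusted p = 0.0368), Dpt, dermatopontin, and Col6a2, a chain of collagen VI. Lum kept its call only without DSS saline 1 or 2 or DSS thymopentin 1 or 2 and lost it without each other library (adjusted p up to 0.118). Dpt (adjusted p = 0.0476) kept it only without TNBS thymopentin 2, and Col6a2 (0.0446, and 0.0522 with the replicate block) only without TNBS thymopentin 1 or DSS saline 1 or 3 (up to 0.126 and 0.162). Fibrillar collagens did not pass: Col1a1 measured 12.5, 11.7 and 13.1 FPKM against 14.1, 23.9 and 19.3 (adjusted p = 0.212) and Col3a1 32.6, 26.6 and 29.8 against 40.1, 47.4 and 46.2 (0.0879). The summed FPKM of the list was 276, 256 and 309.8 in TNBS saline 1 to 3 and 398, 431 and 518 in TNBS thymopentin 1 to 3. The number of members called higher was 3 without TNBS thymopentin 1, 4 without TNBS saline 1, TNBS saline 2, TNBS thymopentin 3 or DSS thymopentin 3, and 4 with the replicate block or median-ratio rescaling. Quantile normalization gave 8. The fit on the TNBS libraries alone called 0 of them. Leaving out those named in the earlier description of these data, 4 of 27 were called higher. Outside the list, the collagen genes Col4a5 and Col16a1, named after their calls had been seen, were called higher too.

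**Figure D4:**
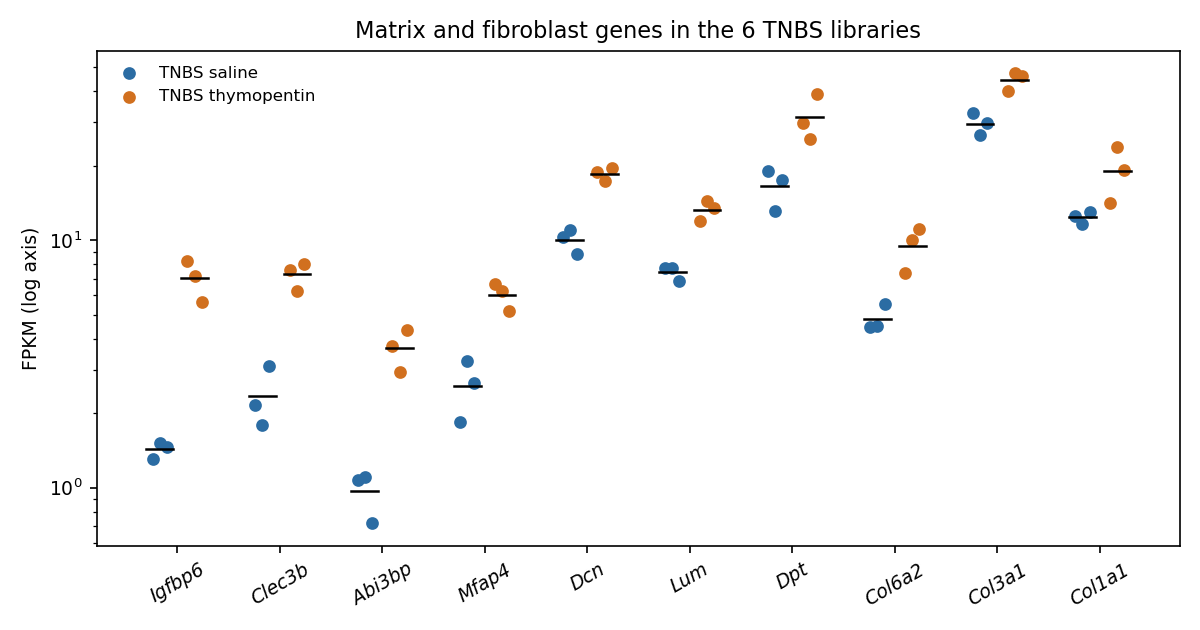
FPKM (log axis) of 10 matrix and fibroblast genes in the 3 TNBS saline and 3 TNBS thymopentin libraries, 1 point per library, with the bar at the group mean. The groups part in each gene, most widely for Igfbp6 (1.30 to 1.52 against 5.65 to 8.23 FPKM) and least for Col1a1 (11.7 to 13.1 against 14.1 to 23.9 FPKM), which did not pass the test.

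Fibroblast and mesothelial markers gave 2 higher genes among 15 tested, against 0.286% of all genes, and 13 that did not pass. Igfbp6, a binding protein of insulin-like growth factor 2, measured 1.30, 1.52 and 1.46 FPKM with saline and 8.23, 7.20 and 5.65 with thymopentin, a ratio of the means of 4.92. This was the largest called rise of all (log2 fold change 1.71 ± 0.18, limma adjusted p = 0.00609), on 63 to 73 against 251 to 380 reads. Gas1, a surface protein of fibroblasts that takes part in hedgehog signalling, measured 2.03, 2.24 and 2.65 FPKM against 6.66, 7.33 and 5.43 (1.17 ± 0.20, limma adjusted p = 0.0313). Gas1 lost its call without any 1 of the 6 TNBS libraries, without DSS saline 3 (adjusted p up to 0.125) and with the replicate block (0.0514). The list median was 0.54 and its summed FPKM 181 to 307 with saline and 255 to 293 with thymopentin. Smooth muscle markers gave 0 calls of 16, and 1 had an unadjusted p under 0.05 in limma, against 12.5% of all genes. Their median of 0.45 moved to 0.09 without TNBS saline 2 and to 0.79 without TNBS saline 3. Lmod1, an actin nucleator of smooth muscle, measured 5.38, 4.11 and 9.26 FPKM against 10.2, 9.99 and 14.2 (adjusted p = 0.214). The summed muscle FPKM was 1818, 948 and 2882 with saline and 2049, 1968 and 2806 with thymopentin. TNBS saline 3 held the most, and its matrix sum was below all 3 thymopentin libraries. These are values of 1 library, and the part of muscle in the matrix result was not tested. Enteric neuron and glia markers gave 0 calls of 17 (9 unadjusted) with a median of 0.42. Syp, a synaptic vesicle protein, measured 1.01, 0.921 and 1.33 FPKM against 1.72, 1.55 and 2.12 (adjusted p = 0.173). Lyve1, of lymphatic endothelium, measured 1.78, 2.07 and 1.03 FPKM against 4.18, 2.93 and 4.07 (adjusted p = 0.209), and 0 of 8 endothelial markers passed (2 unadjusted).

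Outside the matrix, 4 genes rose and kept their call without each library in turn. Cyp2c69, a cytochrome P450 of a family with near-identical members that can share reads, measured 0.953, 1.05 and 1.15 FPKM against 4.07, 3.11 and 4.17 (log2 fold change 1.217 ± 0.14, limma adjusted p = 0.00609). Ccnd2, cyclin D2, which drives entry into the cell cycle, measured 12.02, 14.3 and 11.99 FPKM against 23.7, 28.0 and 24.5 (0.94 ± 0.12, limma adjusted p = 0.00747). Maob, monoamine oxidase B, measured 4.59, 4.88 and 5.79 FPKM against 11.2, 10.6 and 9.35 (0.91 ± 0.11, limma adjusted p = 0.00713, and 0.0507 with the replicate block). Camk1d, a calcium-dependent kinase, measured 7.72, 10.0 and 7.15 FPKM against 15.0, 15.0 and 15.6 (0.81 ± 0.11, limma adjusted p = 0.0102). In all 4 the groups did not overlap. Among 25 cell cycle and mitosis genes 0 passed in limma (1 at an unadjusted p under 0.05, against 12.5% of all genes). Their median was -0.03.

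Few genes of the epithelial lists passed. Over all genes tested, 0.286% were called higher and 0.381% lower. Slc26a3, the chloride and bicarbonate exchanger of surface colonocytes, measured 73.1, 65.9 and 73.5 FPKM with saline and 234, 144 and 144 with thymopentin (log2 fold change 1.25 ± 0.20, limma adjusted p = 0.0217). It was the single call among 28 tested colonocyte markers and was lost without TNBS saline 1 or TNBS saline 3 (up to 0.0749). Pitx1, a homeobox factor of the hindgut region, measured 1.01, 0.709 and 0.413 FPKM against 2.64, 3.08 and 2.46 (1.13 ± 0.17, limma adjusted p = 0.0179; 0.066 without TNBS thymopentin 1). Of 12 tested genes of position along the colon it alone passed, and Hoxb13, whose level set TNBS saline 3 apart, is on that list. Anpep, an aminopeptidase of the brush border, measured 0.874, 1.29 and 0.993 FPKM against 2.25, 2.04 and 2.04 (0.60 ± 0.11, limma adjusted p = 0.0446). It lost its call without 10 of the 12 libraries, all except TNBS saline 2 and DSS thymopentin 1 (up to 0.167), and with the replicate block (0.0947). Cyp4f40, a fatty acid hydroxylase, measured 25.6, 26.5 and 24.8 FPKM against 15.9, 19.0 and 14.8 (-0.61 ± 0.10, limma adjusted p = 0.0314). It lost its call without any 1 of the TNBS libraries except thymopentin 2 and without DSS thymopentin 2 or 3 (up to 0.119), and with the replicate block (0.066).

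Most remaining lists gave no calls in limma, where 12.5% of all genes tested had an unadjusted p under 0.05. Goblet cell and mucus genes had 0 calls of 20 with a median of -0.09 (3 at an unadjusted p under 0.05), tight junction genes 0 of 17 with -0.12 (4 unadjusted), and fatty acid oxidation genes 0 of 20 with -0.10 (2 unadjusted). Stem cell and Wnt targets had 0 of 16 with a median of 0.26 (3 unadjusted), and genes of the BMP pathway 0 of 20 with 0.20 (7 unadjusted). Inflammasome genes had 0 of 18 with a median of -0.16, antimicrobial and acute phase genes 0 of 17 with -0.13, and clock genes 0 of 15 with 0.18, each with 7 unadjusted. Nr1d1, a repressor of the circadian clock, measured 9.69, 14.2 and 4.39 FPKM with saline and 32.8, 20.4 and 11.1 with thymopentin, so the groups overlapped (adjusted p = 0.259). Enteroendocrine markers had 0 of 15 (6 unadjusted), and Gcg, the precursor of glucagon-like peptides, measured 26.4, 23.01 and 20.7 FPKM against 29.7, 48.1 and 42.9 (adjusted p = 0.0879). Genes encoded in mitochondria, whose share moves with RNA quality, had 0 of 13 with a median of -0.11 (0 unadjusted), and immediate early genes 0 of 15 with -0.08 (1 unadjusted). Sprr1a, a cornified envelope gene of squamous epithelium, measured 39.5, 11.5 and 75.9 FPKM with saline and 8.32, 10.95 and 7.05 with thymopentin and did not pass (adjusted p = 0.181).

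Set beside the response in DSS colitis, the changes in many type I interferon and matrix genes differed between the models. The difference of the thymopentin response, TNBS minus DSS, was tested as an interaction in the same limma fit, in which the models share no libraries. It passed in 633 genes (4.64%), among them 53 of the 91 called in TNBS. The count of 633 was 140 without DSS saline 3, 186 without DSS thymopentin 2, 205 without TNBS saline 1, 309 without DSS thymopentin 3, 316 without TNBS thymopentin 1 and 350 without TNBS saline 2. In DSS, 16.5% of the same genes passed thymopentin against saline, 25 of the 91 in the same direction as in TNBS and 11 in the opposite one. Oas3, which fell in TNBS, measured 16.7, 8.49 and 11.8 FPKM in DSS saline 1 to 3 and 27.0, 24.8 and 20.1 in DSS thymopentin 1 to 3. Its DSS log2 fold change was 0.94 ± 0.20 (adjusted p = 0.0137) and the difference -2.63 ± 0.28 (limma adjusted p = 0.00347). Ifit1 measured 41.8, 16.9 and 25.2 FPKM against 35.2, 32.7 and 29.0 in DSS, where it did not pass, with a difference of -2.44 ± 0.40 (limma adjusted p = 0.0121). The type I interferon list had a median of 0.26 in DSS, and 14 of its 34 tested members had a called difference. For the GTPases the DSS median was -0.50, and 3 of 14 had a called difference. So did 4 of 24 tested MHC class I genes and 1 of 13 in the interferon gamma list. Iigp1 was called lower in DSS too (log2 fold change -1.01 ± 0.25, limma adjusted p = 0.0238), and its difference did not pass (limma adjusted p = 0.0835).

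Matrix genes parted the models the other way. Dcn measured 42.2, 49.5 and 48.2 FPKM in DSS saline and 34.9, 29.97 and 32.4 in DSS thymopentin, a log2 fold change of -0.51 ± 0.10 (limma adjusted p = 0.0106). Its difference was 1.34 ± 0.14 (limma adjusted p = 0.00347). Axl, a receptor tyrosine kinase that takes up dying cells and damps innate responses, measured 4.10, 3.98 and 4.74 FPKM against 6.64, 7.54 and 7.74 in TNBS (0.66 ± 0.10, limma adjusted p = 0.0184). In DSS it went from 13.05, 14.9 and 14.4 to 9.97, 8.37 and 10.0 FPKM, and the difference was 1.19 ± 0.14 (limma adjusted p = 0.00465). In TNBS it missed the threshold when TNBS saline 1 or TNBS thymopentin 3 was left out (up to 0.0756) and with the replicate block (0.0669). Of the 30 matrix genes 18 had a called difference, against 4.64% of all genes, with a DSS median of -0.36. Of the 17 tested enteric neuron and glia markers 14 had one. In DSS 15 of these markers were called lower and 1 higher, against 16.5% of all genes in either direction, and 0 were called in TNBS. Slc17a4 measured 3.53, 5.16 and 4.53 FPKM against 8.09, 7.24 and 6.72 in DSS, the opposite of its fall in TNBS, with a difference of -2.08 ± 0.22 (limma adjusted p = 0.00347). Mmp7 reached at most 0.254 FPKM in any DSS library, so its difference of -2.32 ± 0.21 (limma adjusted p = 0.00265) rests on the TNBS saline libraries.

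Of the 25 genes called in 1 direction in both models, Kpna1, Camk1d, Tnf and Nos2 serve as examples. Kpna1 measured 3.77, 4.66 and 3.76 FPKM in DSS saline and 0.640, 0.674 and 0.375 in DSS thymopentin, with a log2 fold change of -1.70 ± 0.12 there (limma adjusted p = 6.64e-05) and a difference of 0.36 ± 0.16 that did not pass (limma adjusted p = 0.239). Camk1d measured 5.26, 5.28 and 4.94 FPKM against 11.5, 10.3 and 9.76 (0.90 ± 0.11, limma adjusted p = 0.00139), and Tnf had a DSS log2 fold change of -1.20 ± 0.21 (0.00593). For these genes the difference was -0.09 ± 0.15 and 0.07 ± 0.30. Nos2 fell in both and more in DSS, where it went from 14.8, 15.3 and 16.7 to 2.11, 2.16 and 1.97 FPKM (difference 1.25 ± 0.26, limma adjusted p = 0.0292). That difference was lost without TNBS saline 1, TNBS thymopentin 1, DSS saline 3 or DSS thymopentin 2 or 3 (up to 0.0754).

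**Figure D5:**
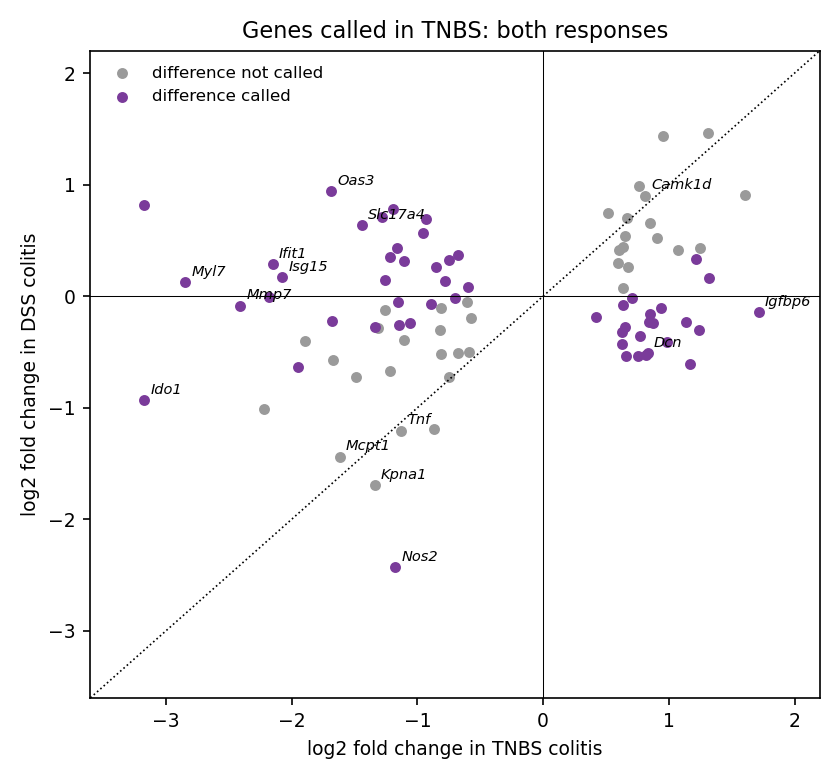
Log2 fold change of thymopentin against saline in TNBS colitis (horizontal) and in DSS colitis (vertical) of the 91 genes called in TNBS, with the dotted line at equal responses. Genes with a called difference (53) lie off that line, such as Oas3 (-1.68 and 0.94) and Dcn (0.83 and -0.51), while Camk1d (0.81 and 0.90) and Tnf (-1.13 and -1.20) lie near it.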

How the data were processed

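Colon RNA of the 6 TNBS libraries was analysed together with the 6 DSS libraries, grouped by their treatment labels. The authors deposited FPKM for all genes of the 12 libraries and, for 1173 genes selected in TNBS, the fold change in log2, with its p-value and FDR, beside log2 values per library, per the file headers. Tools and build in the submitters' processing notes are STAR 2.5, FastQC, DESeq 1.22.1, Cuffnorm and mm9, with no role or order. Libraries were strand-specific, per the labels. Raised back from log2, the low values of the selected genes were multiples of 1 step per library, and each value at or below 30 reads lay within 0.01 of a whole number. These reads are given as depth only, since the selected genes cannot carry a count test, and the meaning of those columns is inferred. Of the selected genes 324 were tested here, and 58 of the 91 called genes were among them (63.7% of the calls, 17.9% of those 324).

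Genes whose FPKM averaged 1 or more over the TNBS libraries were tested on log2(FPKM + 1), a scale that understates the change of low genes. limma 3.58.1 in R 4.3.3 fitted 4 group means over 12 libraries (8 residual degrees of freedom, empirical Bayes trend), with Benjamini-Hochberg adjustment over all 13647 genes. P-values are two-sided, and an exact permutation test of 3 libraries against 3 cannot go below 0.1. The procedure was also run on simulated data whose noise was independent between genes. Real libraries need not share this, so the run gives no error rate for these data. A set of 44 gene lists is described by counts and medians, with no set test. The members, lists and tests were chosen with earlier results of these data known. Genes named are, of those called without each of the 12 libraries in turn and without overlap between groups, up to 14 rises and 14 falls by log2 fold change; up to 4 called members of each list, or 2 by p where none passed; Padi4, Mpo, Elane, S100a8 and S100a9; and the 5 called genes with the smallest p of the difference from DSS. Unnamed models and antigen receptor segments were left out, and the values of 1 listed gene are not reported here. The text gives most of these genes, and says where a gene was chosen after its values were seen.

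Replicate numbers are shared between the groups. Deviations from the group means correlated at 0.125, 0.258 and 0.468 between TNBS libraries of the same number. Between libraries of different number the correlation ran from -0.431 (TNBS saline 2 and TNBS thymopentin 3) to 0.284 (TNBS saline 2 and TNBS thymopentin 1). The latter exceeds 0.125 and 0.258, so these values do not settle whether the numbers mark pairs. The numbers were taken from the titles, and the labels do not explain them. The main fit does not use them. The replicate block is therefore given as an alternative, beside results whose call it changes. Promoters came from RefSeq (GRCm38.p6). Python 3.11.15 with pandas 2.3.3, numpy 2.4.6 and matplotlib 3.10.9 read the tables and drew the plots.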

Additional observations from a re-analysis of the deposited data

Results flagged for a closer look

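For 25 of the genes named in the report the thymopentin response differed between the TNBS and DSS models by limma's interaction test, as log2 fold change in TNBS minus that in DSS. The rises in TNBS of Igfbp6 (difference 1.85, adjusted p = 0.00742), Gas1 (1.78), Abi3bp (1.54), Mfap4 (1.39), Pitx1 (1.37), Dcn (1.34), Axl (1.19), Clec3b (1.16), Ccnd2 (1.05) and Cyp2c69 (0.88, adjusted p = 0.0344) went further in TNBS or met no rise in DSS. Among these genes only Clec3b (0.16) and Cyp2c69 (0.34) had a DSS log2 fold change above 0, and neither was called there. Nos2 fell less in TNBS (1.25). The falls of Myl7 (-2.97), Oas3 (-2.63), Ifit1 (-2.44), Mmp7 (-2.32, adjusted p = 0.00265), Isg15 (-2.24), Ido1 (-2.24), Slc17a4 (-2.08), Usp18 (-1.40), Igtp (-1.31, adjusted p = 0.0464), Irgm2 (-1.07), Psmb9 (-0.89), B2m (-0.82), Prdm1 (-0.81) and H2-T23 (-0.68) went further in TNBS or met no fall in DSS.

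Of the 25 differences, 12 passed without each of the 12 libraries in turn: Igfbp6, Ccnd2, Dcn, Myl7, Mmp7, Ifit1, Oas3, Slc17a4, Abi3bp, Mfap4, Gas1 and Axl. Pitx1 missed the threshold without DSS saline 3 (adjusted p = 0.0508), Isg15 when either that library or DSS thymopentin 2 was left out (up to 0.0529), and Usp18 when either of these or TNBS thymopentin 1 was (up to 0.0636). The other 10 differences were lost without 5 or more libraries, with adjusted p up to 0.114. Without DSS saline 3 each of these 13 was lost. With the replicate block Cyp2c69, Igtp and Prdm1 were lost (0.0766, 0.0738 and 0.0621) and 22 passed.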

How the results depend on the processing

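The 91 calls (39 higher, 52 lower) depend on the number of libraries and on the filter. With no filter except a value above 0 they were 47 (21 and 26), with a mean FPKM of at least 5 they were 42 (15 and 27), on the TNBS libraries alone 7 (1 and 6), and there with the replicate block 1 (0 and 1). Array weights gave 995 (583 and 412), with a weight of 6.32 on TNBS saline 1; the gene-by-gene method was taken after the default had failed to converge. Leaving out 1 library gave 35 to 134 calls (17 to 49 higher, 18 to 85 lower). The difference of the thymopentin response, TNBS minus DSS, passed in 633 genes, in 401 with no filter, 350 at 5 FPKM, 2176 with array weights and 140 to 714 with 1 library left out. The replicate block kept 47 of the 91 among 78 calls (26 higher, 52 lower), and changed no call of a named gene besides those given beside it. No named gene that was called, in the main fit or in an alternative, changed direction between them. Named genes called in neither were not checked for direction. The share of higher genes among the calls went from 42.9% to 58.6% with array weights and to 32.0% with median-ratio rescaling. Pseudocounts of 0.1 and 0.5 gave 129 and 98 calls. The list counts without each library and without genes named earlier were added after the data had been seen. The read totals behind FPKM are not known, so no interval for counting error is given, and 3 libraries a group limit the precision.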
